A study of Mus musculus with 10 samples.

Results

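The core transcription factors of the lens were measured at E13.5 in mouse lenses with and without a Cre meant to delete Dicer, the enzyme that makes mature microRNAs from their hairpins. The set comprised 10 genes: Pax6, Foxe3, Six3, Prox1, Maf, Sox1, Sox2, Pitx3, Hsf4 and Eya1. They were chosen by name, each was represented by the probe set annotated to its symbol with the highest mean over the 10 arrays, and all 10 were measured among 19938 genes. Each member had 1 probe set. DicerCN embryos were Le-Cre+/-;DicerloxP/loxP. Their Cre recombinase is driven by the P0 promoter of Pax6 in the surface ectoderm that gives rise to lens and corneal epithelium. Control embryos were Le-Cre-/-;DicerloxP/loxP, so they carried the same flanked alleles without Cre, although their labels also call them wild type. The presence of Cre and the loss of Dicer therefore cannot be told apart. Each group had 5 arrays, and each array held total RNA from the combined lens pair of 1 embryo.

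Lens formation runs through a network of transcription factors in which Pax6 stands near the top. Pax6, Six3, Sox2 and Eya1 act in the surface ectoderm as the lens placode forms. Foxe3 and Pitx3 keep the anterior epithelial cells alive and dividing. Prox1, Maf, Sox1 and Hsf4 act at different steps in the posterior cells, which leave the cell cycle, elongate into fibres and fill with crystallins. Several members are also expressed outside the lens, with Pax6, Six3 and Sox2 being factors of retinal progenitors too.

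MicroRNAs lower the output of messenger RNAs that pair with their seed, bases 2 to 8. In other tissues or in other studies miR-7a has been reported to act on Pax6, miR-181a on Prox1, miR-200c on Sox2 and miR-204 on Meis2, a partner of the eye factors. Their mature sequences from RefSeq (GRCm38.p6) are given here because loss of Dicer would remove these forms, with the seed in capitals. All 4 seeds differ.
miR-7a-5p: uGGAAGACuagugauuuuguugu
miR-181a-5p: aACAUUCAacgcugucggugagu
miR-200c-3p: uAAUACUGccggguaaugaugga
miR-204-5p: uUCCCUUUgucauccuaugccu
The arrays did not measure the mature forms. Of the reported targets, Meis2 rose in DicerCN lenses, whereas Pax6, Prox1 and Sox2 did not pass the test, as detailed with each gene. Meis2 is no member of the set. It comes from a list of other lens regulators chosen with earlier results of these data known. Of all genes, 2.56% were called higher. Whether loss of these microRNAs had a part in any of these changes was not tested.

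Values are log2 signals, and changes are DicerCN minus control with the standard error (SE) of limma's fit. A gene was called changed at a Benjamini-Hochberg adjusted p under 0.05 over all 19938 genes. Dicer1 itself did not pass (0.13, SE 0.08, limma adjusted p = 0.472, all arrays between 10.01 and 10.45), and its probe set does not check the genotype, as the flanked exons are not named in the labels. All 9 measured lens markers, crystallins and fibre proteins, had control means above the median over genes. Markers of other cells varied between arrays: the neural retina score, the mean of 18 markers relative to controls, lay between −0.25 and 0.35 in control and between −0.25 and 1.92 in DicerCN lenses, with DicerCN replicate 5 the highest. None of these 18 markers was called (0 of 18), though 18 of 18 had a positive change. The macrophage score over 15 markers lay between −0.28 and 0.31 in control and between 0.17 and 0.91 in DicerCN lenses, and 3 of 15 markers were called higher. The muscle score was 2.57 in control replicate 4 and between −0.89 and −0.45 in the other 9 arrays. The periocular mesenchyme score over 12 markers lay between −0.48 and 1.07 in control, with replicate 4 the highest, and between −0.24 and 1.11 in DicerCN lenses. Of these markers 12 of 12 had a positive change and 1 was called higher. The pigment epithelium score over 10 markers lay between −0.15 and 0.18 in control and between −0.08 and 1.22 in DicerCN lenses. Of these markers 9 of 10 had a positive change and 0 were called, and 8 had control means below the median over genes. This score was not used as a covariate. No value on these arrays is 0, and 10 of 18 retina markers and 8 of 15 macrophage markers had control means below the median over genes. In such dissected tissue, fewer cells of a type and less RNA per cell cannot be told apart.

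Across the network, 1 of 10 members changed, Eya1, and it rose. The background was 6.54% of all genes called in either direction and 2.56% called higher. Of the other 9 members, 3 had positive and 6 negative changes, ranging from −0.40 to 0.38. The median change over the 10 was −0.09, against −0.0014 over all genes. At an unadjusted p under 0.05 there were 4 members, Eya1, Pitx3, Sox2 and Sox1, beside 18.6% of all genes at that level. In 5 of 10 members, the same 4 and Pax6, all DicerCN arrays lay on 1 side of the control mean, as they did in 25.4% of all genes.

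**Figure D1:**
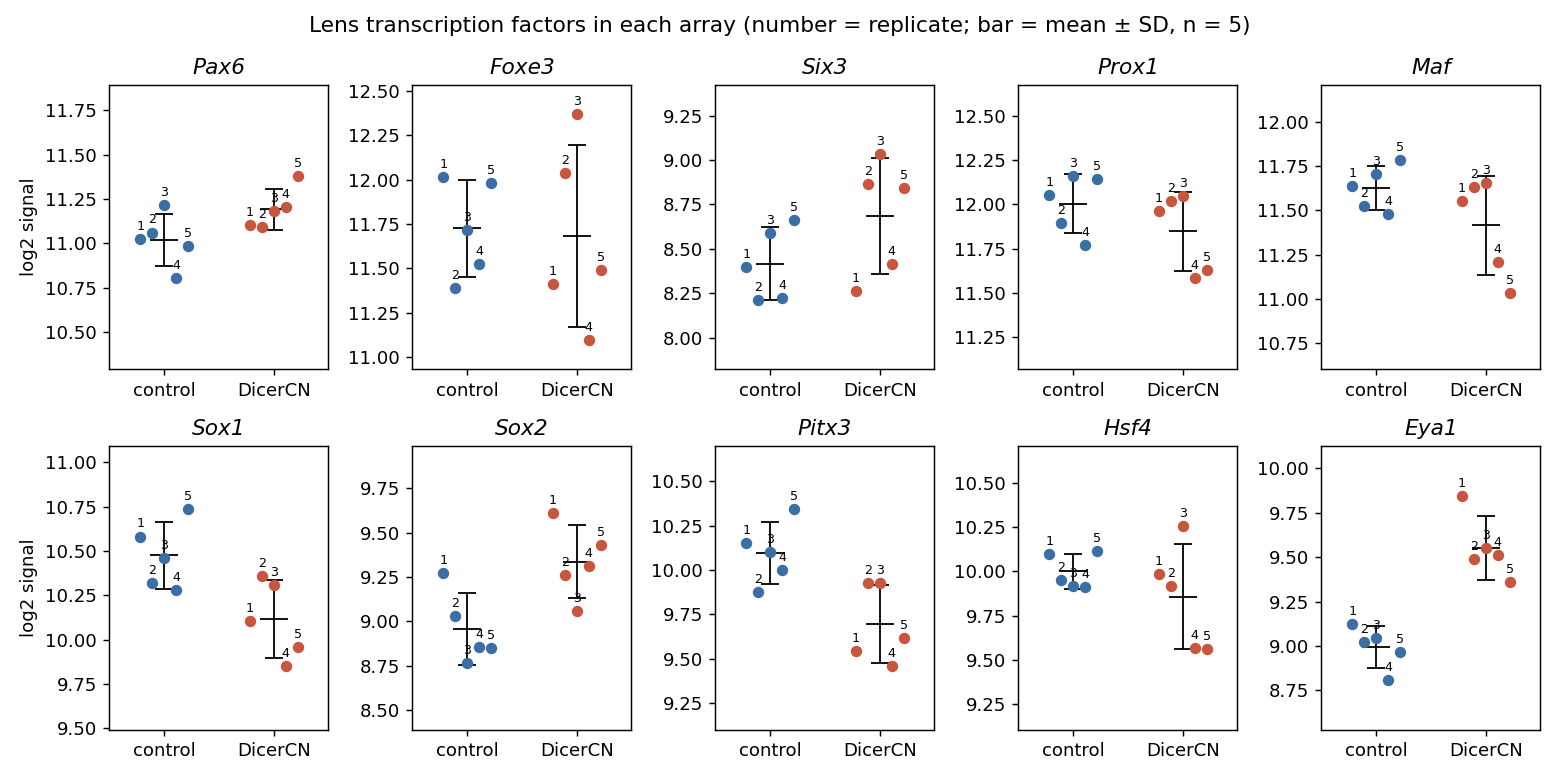
Log2 signal of the 10 transcription factors in each array, one panel a gene with a common span of the vertical axis; blue points are control and red points DicerCN lenses, numbers are replicates, and bars are mean ± SD (n = 5 each). In Eya1 the 5 DicerCN arrays, 9.36 to 9.85, lie above the 5 controls, 8.81 to 9.12, and in the other 9 genes the groups overlap.

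Eya1 is a transcriptional coactivator and protein phosphatase that binds SIX-family DNA-binding partners, and its loss in humans and mice disturbs eye, ear and kidney development. Controls 1 to 5 read 9.12, 9.02, 9.04, 8.81 and 8.96 on the log2 scale. DicerCN lenses 1 to 5 read 9.85, 9.49, 9.55, 9.51 and 9.36. The groups did not overlap, as held for 7.38% of all genes, and DicerCN replicate 1 stood highest. Eya1 was 1.47-fold higher in DicerCN lenses (0.56, SE 0.10, 95% confidence interval 0.35 to 0.77, limma adjusted p = 0.00459, exact 2-sided permutation p = 0.00794, the smallest that 5 against 5 allows). It stayed called when any 1 array was left out and when the retina score entered the fit (0.64, adjusted p = 0.00354). With the macrophage score as a covariate its change was 0.47 (SE 0.14) and the call ended (limma adjusted p = 0.166).

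None of the other 3 Eya genes was called higher. Eya4, a relative with the same conserved domain, fell 1.58-fold (−0.66, SE 0.16, limma adjusted p = 0.0262), from 7.22 ± 0.38 in control to 6.55 ± 0.17 in DicerCN lenses (SD, n = 5 each). The DicerCN mean is a low signal, near the array medians of 6.54 to 6.56 over all probe sets. Control replicate 4, with the high muscle score and the highest mesenchyme score of the controls, had the highest Eya4 signal at 7.88. Without it the change was −0.50 and stayed called (adjusted p = 0.0120). With the muscle score in the fit it was also −0.50 (adjusted p = 0.00657). Leaving out control 1, control 5, DicerCN 3 or DicerCN 4 ended the Eya4 call (adjusted p 0.0513 to 0.0687), as did the retina (0.0539) or macrophage (0.190) score as a covariate, although the change was then −0.68 or −0.75. Eya2 stood at 0.39 (SE 0.19) and Eya3 at −0.12 (SE 0.09), and neither passed. Within arrays, the log2 difference of Eya1 over Eya4 lay between 0.93 and 2.09 in control and between 2.597 and 3.29 in DicerCN lenses. This pair was chosen after its values were seen, so its separation is a description with no test.

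Sox1 and Sox2 are close relatives of the SoxB1 group with opposite placement in lens development: Sox2 acts with Pax6 in the placode, and Sox1 is needed later for gamma crystallin genes and fibre elongation. Sox1 read 10.58, 10.32, 10.46, 10.28 and 10.73 in controls 1 to 5 and 10.10, 10.36, 10.31, 9.85 and 9.96 in DicerCN lenses 1 to 5. All 5 DicerCN values were below the control mean and 3 were below every control. Its change was −0.36 (SE 0.12, 95% confidence interval −0.62 to −0.10), which did not pass (limma adjusted p = 0.1002, exact permutation p = 0.0397).

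Sox2 showed the opposite sign. Controls 1 to 5 read 9.27, 9.03, 8.77, 8.86 and 8.85, and DicerCN lenses 1 to 5 read 9.61, 9.26, 9.06, 9.31 and 9.43. All DicerCN values lay above the control mean and 3 lay above every control, while control replicate 1 reached into the DicerCN range. The change was 0.38 (SE 0.12, 95% confidence interval 0.12 to 0.64) and did not pass (limma adjusted p = 0.0801, exact permutation p = 0.0238). It did pass without control replicate 1 (0.46, adjusted p = 0.0433) or DicerCN replicate 3 (0.45, adjusted p = 0.0437). When the retina score entered the fit, the change was 0.36. Sox3, the remaining SoxB1 gene, stood at 0.04 (SE 0.08).

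The log2 difference of Sox2 over Sox1 within an array ran from −1.88 to −1.29 in control and from −1.25 to −0.49 in DicerCN lenses, without overlap. Neither gene alone was called. This pair too was chosen after its values were seen, for its opposite signs, and carries no test.

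Pitx3 and Foxe3 are factors of the lens epithelium, and mice lacking either have small lenses that stay joined to the cornea. Pitx3 read 10.15, 9.87, 10.10, 10.0002 and 10.34 in controls 1 to 5 and 9.54, 9.93, 9.93, 9.46 and 9.62 in DicerCN lenses 1 to 5. DicerCN replicates 1, 4 and 5 were below every control, and replicates 2 and 3 were inside the control range. The change was −0.40 (SE 0.12, 95% confidence interval −0.65 to −0.15), just short of the threshold (limma adjusted p = 0.0611, exact permutation p = 0.0238). It passed without DicerCN replicate 2 (−0.46, adjusted p = 0.0439) or 3 (−0.46, adjusted p = 0.0437), with array weights (adjusted p = 0.0362) and with the genes of lowest signal left out (adjusted p = 0.0497). When the macrophage score entered the fit, the change was −0.26 (adjusted p = 0.551).

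Foxe3 had the widest spread of the members. Controls 1 to 5 read 12.01, 11.39, 11.72, 11.52 and 11.98, and DicerCN lenses 1 to 5 read 11.41, 12.04, 12.37, 11.10 and 11.49. DicerCN replicates 2 and 3 lay above every control and replicate 4 below every control. The means were close, at 11.73 ± 0.27 and 11.68 ± 0.51 (SD, n = 5 each), and the change was −0.04 with a 95% confidence interval from −0.51 to 0.42 (limma adjusted p = 0.951), so a shift of either sign up to about that size was not resolved. Its sign turned under 8 of 21 alternative settings.

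Pax6 and Six3, the paired-box and homeobox factors that specify lens and retina, had positive changes that did not pass. Pax6 read 11.03, 11.06, 11.21, 10.81 and 10.99 in controls 1 to 5 and 11.10, 11.09, 11.18, 11.21 and 11.38 in DicerCN lenses 1 to 5. DicerCN replicate 5, with the highest retina score, was also highest in Pax6, and the other 4 lay within the control range. The change was 0.17 (95% confidence interval −0.02 to 0.36, limma adjusted p = 0.334), and 0.10 when the retina score entered the fit.

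Six3 read 8.40, 8.21, 8.59, 8.22 and 8.66 in controls 1 to 5 and 8.26, 8.86, 9.03, 8.42 and 8.84 in DicerCN lenses 1 to 5. DicerCN replicates 2, 3 and 5 were above every control, while replicates 1 and 4 were not. The change was 0.27 (SE 0.15, 95% confidence interval −0.06 to 0.59, limma adjusted p = 0.386). Six6, its closest relative and a gene of the retina, stood at 0.84 (SE 0.43, adjusted p = 0.332), with DicerCN replicates 4 and 5 at 9.27 and 9.29 and every other array at or under 8.30. With the retina score as a covariate the changes of Six3 and Six6 were 0.21 and 0.35.

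Prox1, Maf and Hsf4 are factors of the fibre cells: Prox1 is a homeobox factor needed for cell cycle exit and elongation, Maf a leucine zipper factor that binds crystallin promoters, and Hsf4 a heat shock factor required for late fibre genes. Prox1 read 12.05, 11.89, 12.16, 11.77 and 12.14 in controls 1 to 5 and 11.96, 12.02, 12.04, 11.59 and 11.63 in DicerCN lenses 1 to 5. Maf read 11.64, 11.53, 11.70, 11.48 and 11.78 in control and 11.55, 11.63, 11.65, 11.21 and 11.03 in DicerCN lenses. In both genes DicerCN replicates 4 and 5 were below every control and replicates 1 to 3 were within the control range. Hsf4 read 10.10, 9.95, 9.92, 9.91 and 10.11 in control and 9.98, 9.92, 10.25, 9.56 and 9.56 in DicerCN lenses, again with replicates 4 and 5 below every control but with replicate 3 above every control. The changes were −0.16 (95% confidence interval −0.40 to 0.09) in Prox1, −0.21 (−0.48 to 0.06) in Maf and −0.14 (−0.41 to 0.13) in Hsf4. None passed (limma adjusted p = 0.542, 0.411 and 0.628). With the retina score, highest in DicerCN replicate 5, as a covariate the changes were −0.06, −0.06 and −0.01.

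The spread within groups was compared without a test. In 9 of 10 members the SD was larger in DicerCN than in control lenses, as in 64.7% of all genes, and the ratio was highest in Hsf4 (2.98), Maf (2.23) and Foxe3 (1.87). In Pax6 it was 0.78. The median ratio over all genes was 1.25.

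Several members had the same low arrays within a group. Control replicates 2 and 4 were the lowest controls in 6 of 10 members (Foxe3, Six3, Prox1, Maf, Sox1 and Pitx3), which held for 16.8% of all genes. DicerCN replicates 4 and 5 were the lowest of their group in 4 of 10 (Prox1, Maf, Sox1 and Hsf4), against 11.99% of all genes. Pax6, Sox2 and Eya1 followed neither order. These orders were picked after the values were seen and carry no test. Control replicate 4 had the high muscle score and DicerCN replicate 5 the high retina score, while control replicate 2 had a retina score of 0.35 and DicerCN replicate 4 a pigment epithelium score of 1.22, the highest of all arrays. The part of other cells in these orders was not tested.

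**Figure D2:**
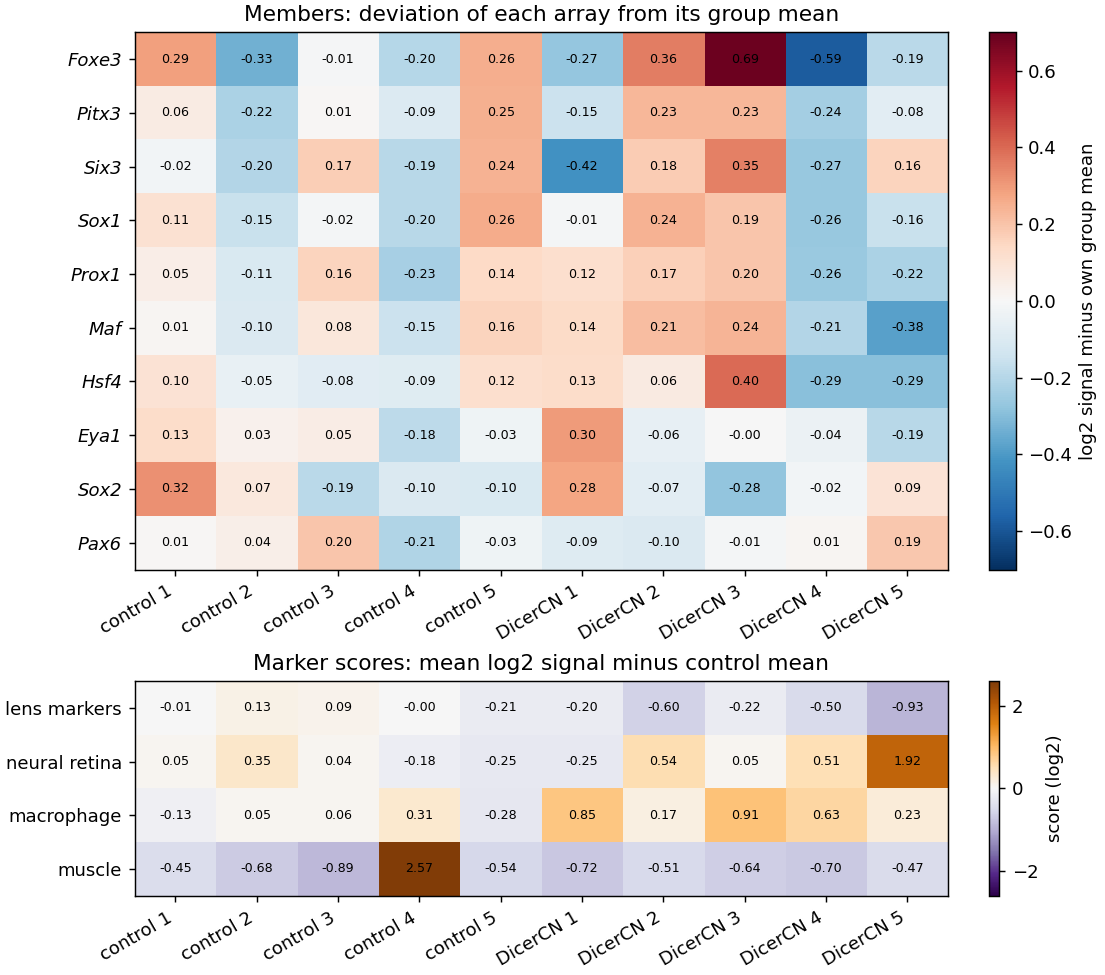
Upper grid: log2 signal of each member in each array minus the mean of its own group. Lower grid: scores of lens, neural retina, macrophage and muscle markers, each the mean log2 signal relative to the control mean. Foxe3 ranges most widely, from −0.59 in DicerCN replicate 4 to 0.69 in DicerCN replicate 3, and DicerCN replicate 5 has the highest retina score (1.92) and the lowest lens score (−0.93). The lens score is a mean of 9 genes that include Crygs, which read 7.17 in that array beside a control mean of 11.18. It is therefore no plain measure of the amount of lens tissue.

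The gene whose 10 array values followed each member most closely was found over all genes as a description. It was Cpeb1, which binds messenger RNA, for Eya1 (Pearson r = 0.980 over 10 arrays) and Carm1, an arginine methyltransferase, for Six3 (0.981). For Pitx3 it was Cog2, a Golgi protein (0.982), and for Foxe3 it was Slc39a13, a zinc transporter (0.976). Those for Hsf4, Prox1, Sox1 and Maf were Rdh9 (0.979), Rcn3 (0.973), Snx18 (0.969) and Yrdc (0.966), and those for Pax6 and Sox2 were Olfr1480 (0.936) and D1Pas1 (0.930). Each is the best of all other genes tested, over few arrays, which share their RNA and scaling. Of these, Cpeb1 alone was called, with a change of 0.98 (limma adjusted p = 0.00299). The correlations included the difference between groups, so a gene this close to Eya1 would share its shift. Its call is therefore no separate finding.

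Of 20 family relatives of the members that were measured, 0 rose and 1 fell, Eya4, a share near the 3.97% of all genes called lower. The median change over the 20 was −0.02. The next smallest p belonged to Six4, another homeobox factor of its family, at 0.27 (SE 0.13, limma adjusted p = 0.290). Mafa, Mafg and Mafk, other leucine zipper factors of the Maf family, stood at −0.18, −0.12 and 0.10, and Pitx1 at −0.14. Hsf2 stood at 0.09.

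Of 35 other transcription regulators of lens development, 3 rose and 0 fell, against 2.56% of all genes called higher. Sox4, a SoxC factor of progenitors, rose by 0.75 (SE 0.11, limma adjusted p = 0.00169), with control values from 8.54 to 9.04 and DicerCN values from 9.23 to 9.71. Tfap2b, an AP-2 factor of the surface ectoderm, rose by 0.68 (SE 0.15, limma adjusted p = 0.0151). Its groups overlapped, since control replicate 3 (6.79) lay above DicerCN replicate 5 (6.73). Its signal was low, with means of 6.35 in control and 7.03 in DicerCN lenses beside array medians of 6.54 to 6.56. Meis2, a homeobox partner of Pax6 and the reported target of miR-204, rose by 0.42 (SE 0.09, adjusted p = 0.0166), from 9.25 ± 0.16 to 9.67 ± 0.12 (SD, n = 5 each). Gata3, a zinc finger factor needed for fibre cell cycle exit, stood at 0.50 (SE 0.14) and did not pass (adjusted p = 0.0618). Its groups did not overlap, and it passed under 6 of 21 alternatives, among them without DicerCN replicate 4 or 5 (adjusted p = 0.0410 and 0.0285). The count of called regulators was 5 without DicerCN replicate 2 (4 higher and 1 lower, Etv5) or without DicerCN replicate 5 (5 higher).

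These 35 genes had a median change of 0.16, with 26 positive and 9 negative, and 3 of them, Sox4, Meis2 and Gata3, did not overlap between groups, a share near the 7.38% of all genes. With the macrophage score as a covariate none of the 3 calls held (adjusted p = 0.0863, 0.385 and 0.271 for Sox4, Tfap2b and Meis2), and their changes were 0.67, 0.43 and 0.37. Under that covariate 206 genes were called in all, against 1303 without it. The Meis2 call was also lost when control replicate 2 and DicerCN replicate 5 were both left out (adjusted p = 0.0514), with a change of 0.44. The largest changes of the 35 were those of Mab21l2 (1.38), Otx2 (0.99) and Dach1 (0.96), none of which was called. Each had its highest signals in DicerCN replicates 4 and 5, the arrays with the highest pigment epithelium and retina scores respectively. The part of other cells in these changes was not tested.

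**Figure D3:**
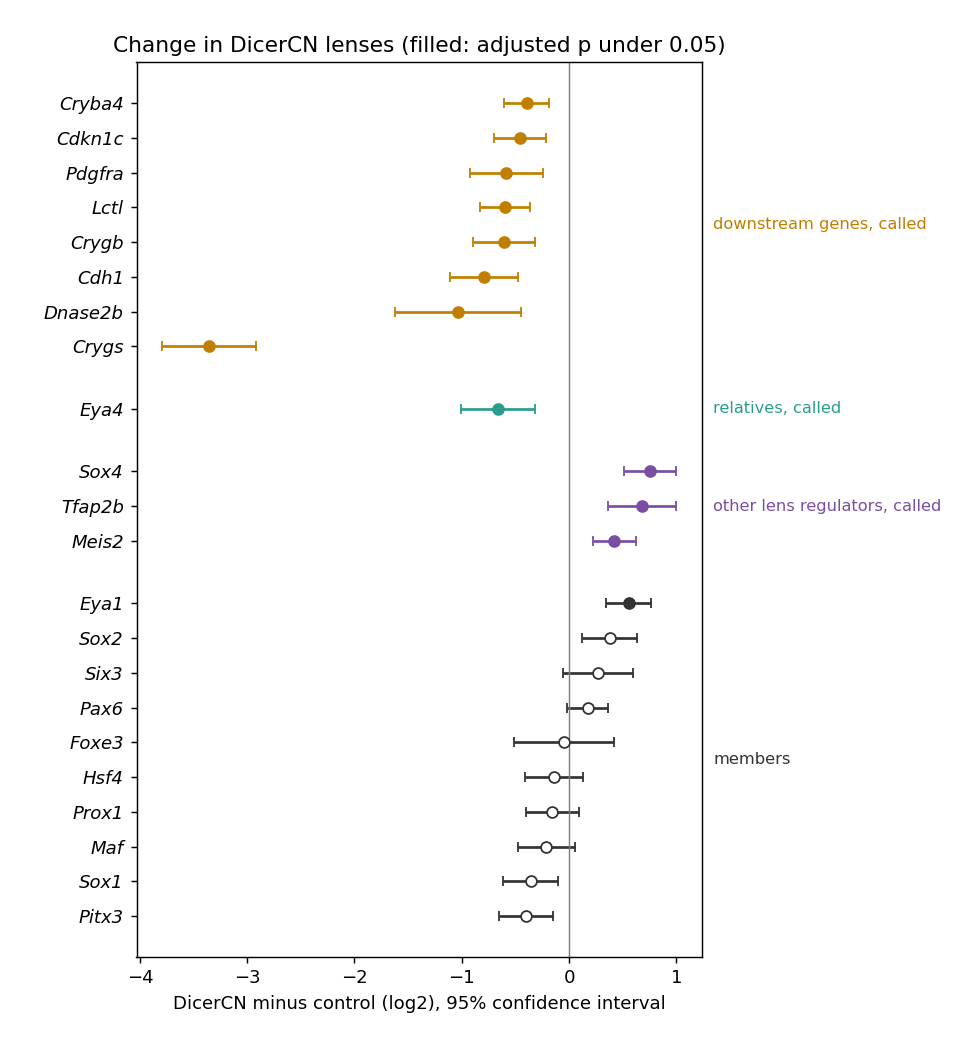
Change of the 10 members, and of the called genes among other lens regulators, relatives and reported downstream genes, as log2 signal in DicerCN less that in control lenses, with 95% confidence intervals; filled points have an adjusted p under 0.05. Among the members only Eya1 (0.56) is filled, and the intervals of Sox2, Sox1 and Pitx3 leave out 0 although their adjusted p do not pass.

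Crystallin and fibre genes were among those reported to depend on the members. Of 27 such genes 26 were measured, and 0 rose and 8 fell, against 3.97% of all genes called lower. The median change was −0.18, with 4 positive and 22 negative. The set holds crystallin genes known from earlier results of these data to be low, so its direction is no independent evidence, and a fall of a target does not show that its factor acted less. It also mixes reported directions, as Cdh1 has been reported to stay on in fibres without Prox1. The count of falls and the median therefore have no single meaning for the members.

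Of 7 genes reported to depend on Hsf4 in the lens, 3 fell: Crygs, the gene of gamma S crystallin, Lctl, a gamma-klotho protein, and Dnase2b, the nuclease that clears fibre cell DNA. Crygs had log2 signals from 11.03 to 11.37 in control and from 7.17 to 8.57 in DicerCN lenses, a 10.2-fold fall (limma adjusted p = 1.12e-05), whereas Hsf4 itself stood at −0.14. Lctl fell by 0.60 on the log2 scale (SE 0.11, adjusted p = 0.00621) and Dnase2b fell by 1.04 (SE 0.27, adjusted p = 0.0391). Both had low signals beside array medians of 6.54 to 6.56 over all probe sets. Lctl means were 5.95 in control and 5.36 in DicerCN lenses, and Dnase2b means were 6.87 and 5.83. Bfsp1, the beaded filament protein filensin, stood at −0.45 and Vim, vimentin, at 0.03. The growth factor gene Fgf7 stood at −0.40 and the small heat shock protein gene Hspb1 at −0.20. None of these passed. Control replicate 4, with the high muscle score, was the highest array in Fgf7 (6.21) and in Hspb1 (7.41). The other controls lay between 4.68 and 5.21 in Fgf7 and between 6.28 and 6.41 in Hspb1. DicerCN lenses lay between 4.64 and 5.08 and between 6.17 and 6.71. Fgf7 signals were low too, with means of 5.22 in control and 4.82 in DicerCN lenses. Leaving out 1 array ended the Dnase2b call in 6 of 10 cases (adjusted p at most 0.105).

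Of 10 measured crystallin genes reported to depend on Maf, Sox1 or Pax6, 2 fell. Crygb, a gamma crystallin, fell by 0.60 (SE 0.13, limma adjusted p = 0.0179) and Cryba4, a beta crystallin, fell by 0.40 (SE 0.10, adjusted p = 0.0290). Cryaa and Cryab, the alpha crystallins, stood at −0.06 and 0.20, and the remaining 6 lay between −0.34 and −0.07. Gamma crystallin genes are nearly alike and can share probes, so their separate values are uncertain. Leaving out 1 array ended the Cryba4 call in 6 of 10 cases (adjusted p at most 0.0777) and the Crygb call in 1, without control replicate 1 (0.0556).

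Of 7 genes reported to depend on Prox1, 3 fell, Crygb among them. Cdkn1c, the cyclin-dependent kinase inhibitor that marks fibre cell cycle exit, fell by 0.46 (SE 0.11, limma adjusted p = 0.0286). Cdh1, E-cadherin, fell by 0.79 (SE 0.15, adjusted p = 0.00665). It has been reported to stay on in fibres without Prox1. Cdkn1b, another inhibitor, stood at −0.15 and Fgfr3, a fibroblast growth factor receptor, at 0.28. Pdgfra, the platelet-derived growth factor receptor reported to need Foxe3, fell by 0.58 (SE 0.16, adjusted p = 0.0423), while Foxe3 stood at −0.04. Leaving out 1 array ended the Cdkn1c call in 8 of 10 cases and the Pdgfra call in 7 of 10 (adjusted p at most 0.0652 and 0.108). The count of downstream genes called was then 3 without control 1, 4 without control 2 or 3, 5 without control 4, control 5, DicerCN 2 or DicerCN 5, and 7 or 8 otherwise. With the retina score as a covariate 3 of the 8 were called (Crygs, Lctl and Cdh1), and with the macrophage score 2 were called (Crygs and Cryba4). With the retina score the other 5 changes were smaller, at −0.80 in Dnase2b, −0.28 in Cryba4, −0.47 in Crygb, −0.38 in Cdkn1c and −0.48 in Pdgfra. With the macrophage score the changes without a call were larger in Dnase2b (−1.59), Crygb (−0.81), Lctl (−0.68) and Cdkn1c (−0.56), and smaller in Cdh1 (−0.67) and Pdgfra (−0.53).

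**Figure D4:**
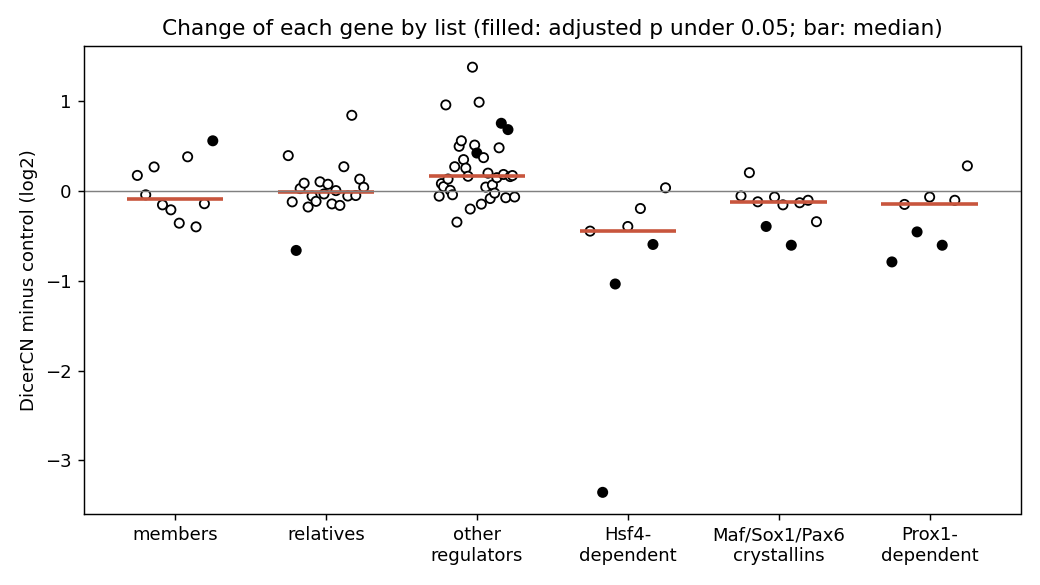
Change of each gene, DicerCN minus control on the log2 scale, by list; filled points have an adjusted p under 0.05 and the red bar is the list median. The members scatter around a median of −0.09, the other regulators around 0.16 and the Hsf4-dependent genes around −0.45, with Crygs at −3.36.

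Promoter sequences are shown for Sox2, the member whose window holds a Maf half-site, and for the fallen genes Cryba4, Crygs and Dnase2b, whose windows hold motifs of Maf, Sox or heat shock factors. Lctl, which also fell and whose window also holds a Maf half-site, is not shown. Each is the 250 bases before the start in the RefSeq table (GRCm38.p6), 5′ to 3′ on the gene's strand. Capitals mark the Maf half-site TGCTGA in Sox2, Cryba4 and Crygs. In Crygs they also mark the Sox core AACAAT and the TATA box TATAAA, and in Dnase2b the heat shock element core GAANNTTC. Both strands were searched, and in Crygs the Maf and Sox motifs lie on the opposite strand. None of the marked matches overlap.
Sox2 promoter, chr3:34649745-34649994, plus strand: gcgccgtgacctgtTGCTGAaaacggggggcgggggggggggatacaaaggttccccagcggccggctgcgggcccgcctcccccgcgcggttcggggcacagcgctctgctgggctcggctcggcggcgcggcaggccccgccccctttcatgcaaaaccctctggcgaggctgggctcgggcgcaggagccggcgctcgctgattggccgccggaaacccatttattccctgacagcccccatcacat
Cryba4 promoter, chr5:112252519-112252768, minus strand: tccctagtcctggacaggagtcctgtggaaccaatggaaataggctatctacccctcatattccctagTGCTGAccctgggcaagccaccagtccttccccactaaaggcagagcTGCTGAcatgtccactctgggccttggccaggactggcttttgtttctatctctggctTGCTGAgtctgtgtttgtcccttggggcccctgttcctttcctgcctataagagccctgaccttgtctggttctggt
Crygs promoter, chr16:22811411-22811660, minus strand: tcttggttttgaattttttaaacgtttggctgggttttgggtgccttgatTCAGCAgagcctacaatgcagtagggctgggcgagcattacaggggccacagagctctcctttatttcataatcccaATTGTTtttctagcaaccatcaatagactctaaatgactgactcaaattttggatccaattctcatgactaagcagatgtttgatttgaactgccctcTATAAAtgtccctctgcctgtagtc
Dnase2b promoter, chr3:146615599-146615848, minus strand: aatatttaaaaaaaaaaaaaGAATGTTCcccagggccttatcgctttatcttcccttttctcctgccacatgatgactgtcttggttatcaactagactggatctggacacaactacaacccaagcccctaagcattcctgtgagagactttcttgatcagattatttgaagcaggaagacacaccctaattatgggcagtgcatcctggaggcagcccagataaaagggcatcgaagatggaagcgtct
Windows were found for 7 of 10 members and 22 of 27 downstream genes. Maf, Hsf4 and Eya1 were the members without one. TGCTGA was present for 1 of 7 members (Sox2) and for 11 of 22 downstream genes, beside 16.1% of all 32851 windows. In Cryba4 it occurred 3 times. AACAAT was present for 0 of 7 members and 3 of 22 downstream genes (9.42% of all windows), GAANNTTC for 0 and 2 (6.69%), and TATAAA for 1 and 4 (12.4%). A gene was counted if any of its windows matched, whereas the percentages are of single windows (32851 windows for 27025 genes). The counts and percentages are therefore not the same measure. The fallen genes shown were chosen for having a motif, so they show no link between motif and fall. TGCTGA was also present for Bfsp1, Cryaa, Cryba1, Crybb1, Cryga, Crygc, Fgf7 and Mip, none of which was called. GAANNTTC was also present for Hspb1, and AACAAT for Crybb1 and Crygd, again not called. The fallen genes Crygb, Cdh1, Cdkn1c and Pdgfra had no match or no window. A match describes letters only and is not evidence of binding.

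**Figure D5:**
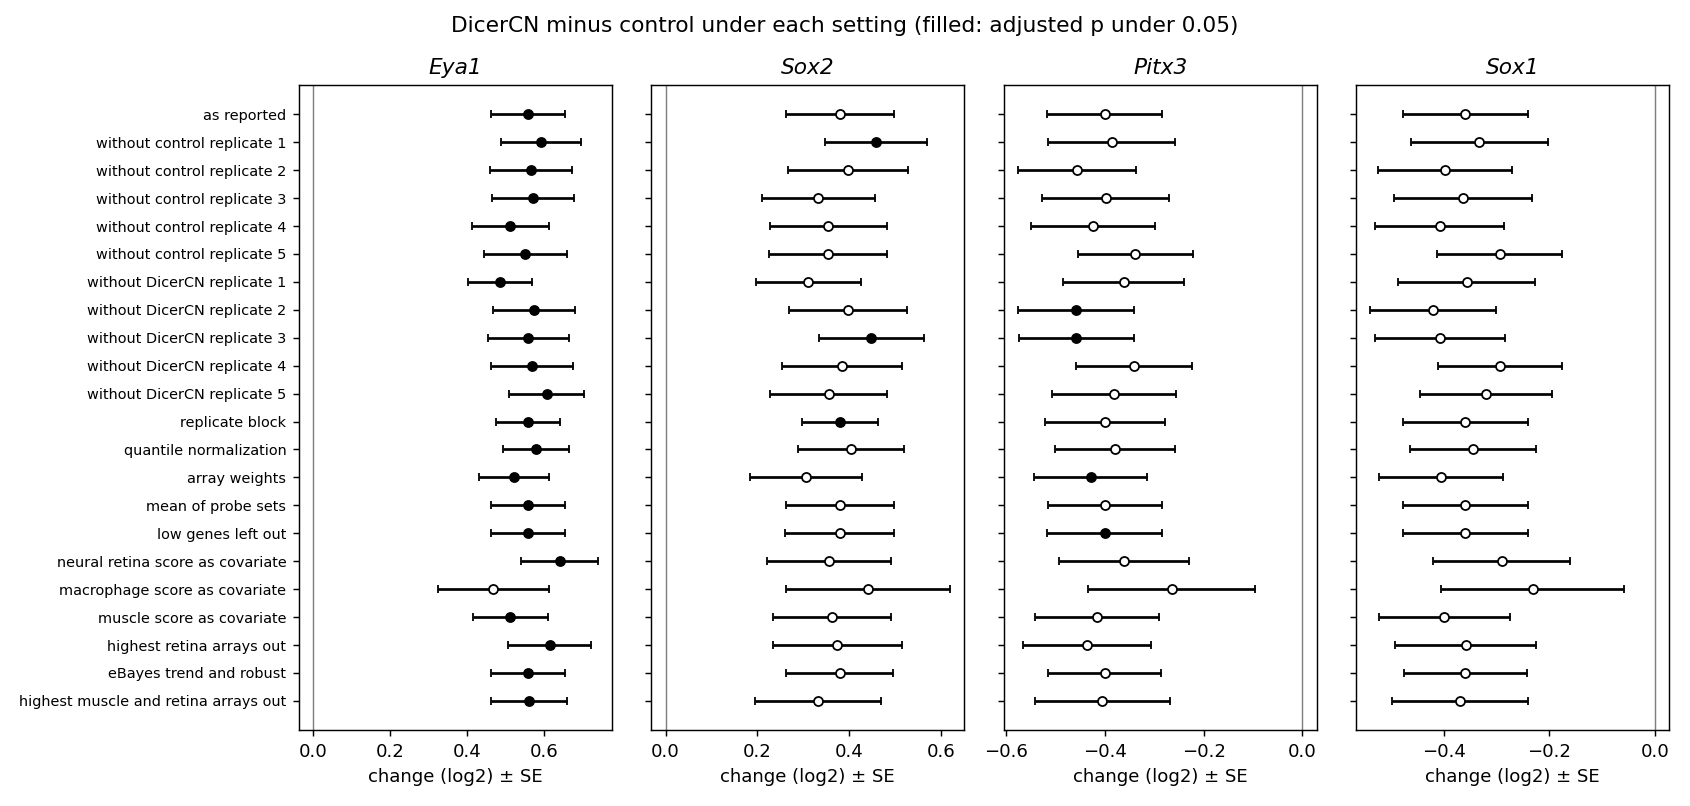
Change of Eya1, Sox2, Pitx3 and Sox1, as log2 signal in DicerCN less that in control lenses, with SE, as reported and under the 21 alternative settings; filled points have an adjusted p under 0.05. Eya1 is filled in all settings except the macrophage covariate, Sox2 in 3 alternatives, Pitx3 in 4 and Sox1 in 0, and no change crosses 0.

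Over these 21 settings the 4 genes kept their signs. The change of Eya1 ran from 0.47 to 0.64, that of Sox2 from 0.31 to 0.46, that of Pitx3 from −0.46 to −0.26 and that of Sox1 from −0.42 to −0.23. Eya1 was called in 20 of 21 and Sox1 in 0 of 21, with adjusted p in limma from 0.0537 to 0.623 for Sox1.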

How the data were processed

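Total RNA (100 ng) from the lens pair of each embryo was labelled as sense-strand cDNA with an Affymetrix whole-transcript assay for 1 array each, as the labels' protocols state. GCOS is the tool named in the submitters' processing notes. The deposited values are taken as log2 signals because they run from 1.91 to 15.2. The authors' summary and normalization are not given in the sources used here. Array medians (6.54 to 6.56) show scaling between arrays, so a change in total RNA cannot be seen.

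Of 35557 probe sets, the 21789 with 1 gene symbol in the platform annotation were reduced to 19938 genes, using the probe set of highest mean. All 10 member symbols matched RefSeq by gene ID. Groups of 5 arrays were compared with limma 3.58.1 in R 4.3.3 (lmFit and eBayes, 2-sided), checked on simulated data, and single genes by exact permutation over 252 splits. An array gives no count of molecules, and the number of arrays limits precision (median SE 0.0986). Alternatives left out arrays, changed normalization, weights, probe set rule, filter or spread estimate, or added a replicate block or a marker score. Same-numbered arrays were correlated between −0.09 and 0.19 in their deviations from the group means, so the numbers were not taken as pairs.

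Members and lists were chosen with earlier results of these data known. Named genes are the members, all called genes of each list, otherwise up to 4 of smallest p, and the gene most like each member. Further values in those lists, and Dicer1, were added after they were seen.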

Additional observations from a re-analysis of the deposited data

How the results depend on the processing

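Eya1 stayed called when any 1 array was left out (0.48 to 0.61), and only the macrophage covariate ended its call (0.47). Foxe3 turned sign to 0.059 after quantile normalization, 0.049 with the retina score and 0.075 with the macrophage score, and ranged from −0.22 to 0.10 when 1 array was left out; the cause was not tested. Sox2 passed with the replicate block (0.38, adjusted p = 0.0334) and without 1 array in 2 of 10 cases (0.31 to 0.46). Pitx3 passed with array weights (−0.43), without the genes of lowest signal (−0.40, fewer genes tested) and without 1 array in 2 of 10 cases (−0.46 to −0.34). The other members kept their sign and stayed uncalled in every alternative run.

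The count of members called was 2 with the replicate block, array weights or the low genes left out, 0 with the macrophage score, and 1 to 3 when 1 array was left out (2 without control 1 or DicerCN 2, 3 without DicerCN 3). Relatives called were 0 with the replicate block (Eya4 adjusted p = 0.0612), the retina score or the macrophage score, and 0 to 1 when 1 array was left out. Other regulators called were 7 with array weights (6 higher and 1 lower, Etv5), 5 with the retina score and 2 without both arrays of highest retina score. They were 0 with the macrophage score, and 3 to 5 when 1 array was left out. Downstream genes called were 3 with the retina score, 2 with the macrophage score, 5 with the muscle score, 3 without both arrays of highest retina score, 4 without control replicate 4 and DicerCN replicate 5 (chosen after seeing the data), and 3 to 8 when 1 array was left out. All genes called fell to 206 with the macrophage score, whose values differ between the groups, to 722 without both arrays of highest retina score, and lay between 784 and 1295 when 1 array was left out. The replicate block changed no call other than those of Sox2 and Eya4 among the members, the called genes of the lists, Gata3, Six4, Eya2 and Six6. Of 5 control arrays, 1 was most like the DicerCN array of its own number. With 5 arrays a group, a change near 0.3 on the log2 scale in a gene as variable as Foxe3 (SE 0.22) lies below what could be resolved.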
